A study of Mus musculus with 6 samples.

Results

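The proteins of the mitochondrial ribosome were followed through the mRNA of their genes in mouse intestine. Members were the protein-coding genes whose symbol is Mrpl (large subunit) or Mrps (small subunit) followed by a number and, in a few cases, a letter from a to c. This gave 78 genes of the 54446 identifiers in the count table, 49 of the large and 29 of the small subunit. All 78 passed the filter on low counts. The control group was 3 intestine samples of WT mice that were dam-fed and not stressed. The NEC group (necrotizing enterocolitis) was 3 intestine samples of WT mice gavaged with 40 µl of 33% Esbilac formula every 4 h, exposed every 12 h to 99.9% N2 for 100 s, and then kept at 4 °C for 10 min. Both groups were taken at 96 h. The sources used here give no age, sex or intestinal segment. Whether each sample came from its own animal is not labelled, and p-values measure only the spread of these samples, part of which may be technical.

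The mitochondrial ribosome works in the matrix and translates the few inner-membrane proteins that mitochondrial DNA encodes, all of them subunits of the respiratory chain and ATP synthase. Its RNAs come from mitochondrial DNA. Its proteins are made from nuclear genes in the cytosol and are imported. Part of them descend from bacterial ribosomal proteins, and the rest were added in the mitochondrial lineage. In the intestine, absorptive enterocytes are rich in mitochondria.

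Libraries held 69441184 to 106304239 counts in total. The 37 genes of the mitochondrial genome were at 0 in every library, so the mRNAs that this ribosome translates could not be set beside its proteins. Epithelial markers were present in every library, with a summed level of 13339 to 20892 CPM (counts scaled to library size with TMM factors) over 11 genes. Xist had 179 CPM in control replicate 1 and 344 CPM in control replicate 2, with at most 1.17 CPM in any of the 4 remaining libraries. The Y-linked Ddx3y stood at 19.8 CPM in control replicate 1, which thus held both, and at 1.29 CPM in control replicate 2. Xist was thus high in control libraries only, though not in control replicate 3. None of the 78 members lies on chromosome X or Y, but the part of sex in their values was not tested. In bulk tissue, fewer cells of a type and less RNA per cell cannot be told apart.

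Of the 78 members, 69 matched a promoter window of RefSeq (GRCm38.p6), which runs from 250 bases before to 50 bases after the start of the gene. Motifs of 3 factors known for genes of mitochondrial proteins were searched on both strands, with overlaps counted. The NRF1 motif, GCGC and TGCGC with any 1 base between them, was found in 13 of the 69 windows (18.8%), against 8.9% of the 12807 windows of genes tested here and 4.78% of all 27025 windows. The ETS family motif CCGGAAGT was found in 11 (15.9%), against 7.18% of the windows of genes tested and 4.0% of all windows. The YY1 motif AAGATGGCG was found in 8 (11.6%), against 2.7% and 1.49%. In all, 30 of the 69 windows held at least 1 of them, against 17.4% of the windows of genes tested. These are matches of letters and not measured binding. The part before the first annotated exon is shown for 3 members with a match, with the match in capitals. Mrpl12 binds the mitochondrial RNA polymerase, Mrpl45 sits at the exit of the peptide tunnel and faces the inner membrane, and Mrps22 belongs to the small subunit.

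Mrpl12, chr11:120484387-120484612, plus strand: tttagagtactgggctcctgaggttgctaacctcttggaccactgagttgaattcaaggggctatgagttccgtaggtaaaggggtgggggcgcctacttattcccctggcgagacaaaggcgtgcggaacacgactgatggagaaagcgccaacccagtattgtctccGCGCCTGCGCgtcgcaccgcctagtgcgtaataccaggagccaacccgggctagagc
Mrpl45, chr11:97315466-97315715, plus strand: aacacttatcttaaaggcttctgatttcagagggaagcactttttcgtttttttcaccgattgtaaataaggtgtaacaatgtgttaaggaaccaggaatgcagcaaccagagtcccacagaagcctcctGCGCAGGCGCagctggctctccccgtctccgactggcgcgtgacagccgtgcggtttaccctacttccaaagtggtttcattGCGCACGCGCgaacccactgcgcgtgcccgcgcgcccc
Mrps22, chr9:98601680-98601929, minus strand: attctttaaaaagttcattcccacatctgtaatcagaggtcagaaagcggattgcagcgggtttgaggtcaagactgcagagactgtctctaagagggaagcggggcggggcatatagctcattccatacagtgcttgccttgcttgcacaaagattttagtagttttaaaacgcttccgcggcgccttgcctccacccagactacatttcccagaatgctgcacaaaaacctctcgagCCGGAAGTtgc

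For comparison, the same region is shown for Mrpl16, Mrps25 and Mrps36, which had 3 of the 4 smallest p-values of the comparison of NEC with control. None of the 3 motifs was found in their windows, so no letter is in capitals. Of the 69 members with a window, 39 had no match. The median log2 fold change of NEC over control was 0.064 in these 39 and 0.057 in the 30 with a match.

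Mrpl16, chr19:11770165-11770390, plus strand: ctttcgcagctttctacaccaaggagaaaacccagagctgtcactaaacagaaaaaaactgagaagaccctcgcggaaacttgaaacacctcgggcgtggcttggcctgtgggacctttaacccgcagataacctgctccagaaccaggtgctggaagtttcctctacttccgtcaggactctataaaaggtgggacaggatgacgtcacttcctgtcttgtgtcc
Mrps25, chr6:92184034-92184273, minus strand: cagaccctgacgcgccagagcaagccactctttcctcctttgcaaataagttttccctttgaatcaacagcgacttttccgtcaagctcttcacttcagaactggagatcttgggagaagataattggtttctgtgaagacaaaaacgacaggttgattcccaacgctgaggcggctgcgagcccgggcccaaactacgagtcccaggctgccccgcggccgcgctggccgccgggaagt
Mrps36, chr13:100744660-100744909, minus strand: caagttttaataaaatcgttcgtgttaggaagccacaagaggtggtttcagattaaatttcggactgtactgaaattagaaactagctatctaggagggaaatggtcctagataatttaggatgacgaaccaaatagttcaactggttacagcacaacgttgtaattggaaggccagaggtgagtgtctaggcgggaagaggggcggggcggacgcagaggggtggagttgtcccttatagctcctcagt

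The members also lie close to other genes. The start of 33 of the 78 was within 1000 bases of the start of a protein-coding gene on the opposite strand, against 14.3% of the 15354 protein-coding genes tested. Mrpl46 (7, 78775236 to 78783531, minus strand) and Mrps11 (7, 78783119 to 78792989, plus strand) are such a pair and overlap at their starts. Mrpl43 faces Twnk, the helicase of mitochondrial DNA. Exons of 28 members overlap exons of a gene on the opposite strand. No source used here gives the strand setting of the counts, so for these 28, Mrpl46, Mrps11 and Mrpl43 among them, reads of both genes cannot be told apart. Mrpl3, Mrpl10, Mrpl12, Mrpl19, Mrpl27, Mrpl44, Mrpl49, Mrpl58, Mrps18b, Mrps27, Mrps30 and Mrps34, named below, are also among the 28. Exons of 8 members, Mrpl33, Mrpl53 and Mrps18c among them, overlap exons of another gene on the same strand. Positions are those of GENCODE M21 on mm10.

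The levels of the members spanned a wide range. Per kilobase of the principal transcript, the mean over the 6 libraries ran from 3.28 to 173 CPM, with a median of 26.1 in the large and 17.2 in the small subunit. In the small subunit Mrps21 was highest at 173 CPM per kilobase, followed by Mrps36 at 87.5 and, close to it, Mrps18c at 84.4. Mrps36 is named as a ribosomal protein but is known as a component of the oxoglutarate dehydrogenase complex. In the large subunit Mrpl33 (132 CPM per kilobase), Mrpl52 (128) and Mrpl23 (127) were highest, with ranges over the libraries that overlapped. Mrpl23 was added after its value was seen, and a pseudogene named after it is in the table, so its counts are uncertain. The lowest were Mrps5 (3.28) and Mrps17 (4.78) in the small subunit, and Mrpl53 (3.53) and Mrpl19 (4.02) in the large. The level per length depends on the length used: Mrps17 and Mrps5 have long annotated transcripts (5061 and 4481 nucleotides). With the merged length of all annotated exons instead, Mrps21 and Mrps18c were highest and Mrps10 and Mrps5 lowest in the small subunit, and Mrpl27 and Mrpl41 highest and Mrpl53 and Mrpl3 lowest in the large.

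**Figure D1:**
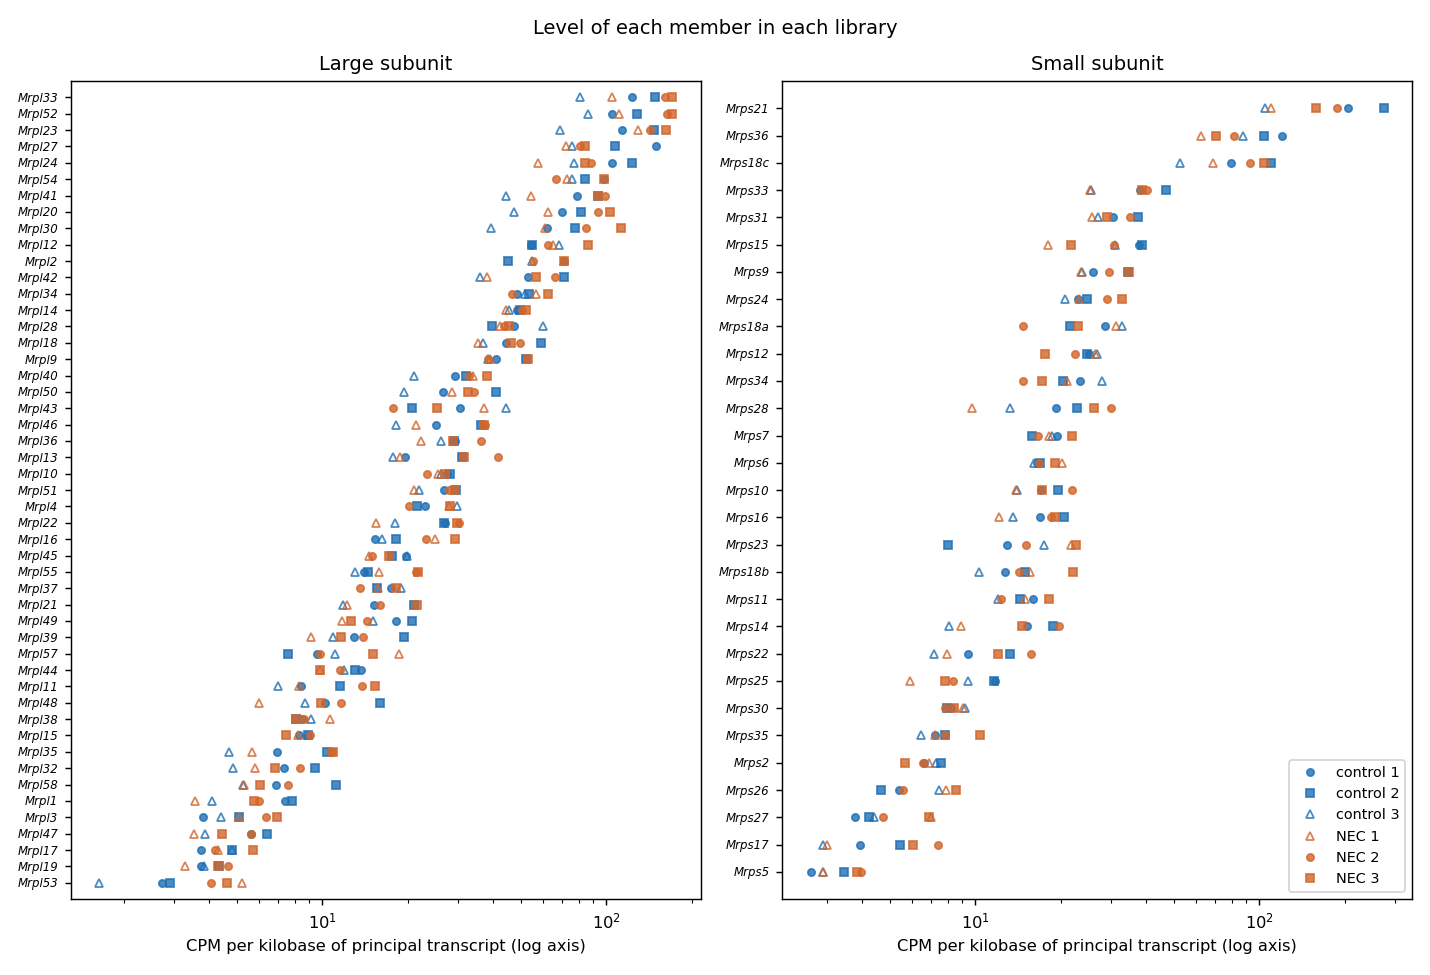
Level of each member in each library, in CPM per kilobase of the principal transcript on a log axis, for the large subunit (left) and the small subunit (right). Each symbol is a library, blue for control and orange for NEC, and open triangles are control replicate 3 and NEC replicate 1, which lie to the left for many members. Genes are ordered by their mean, from 3.28 for Mrps5 to 173 for Mrps21.

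The main question was whether mRNA of the mitochondrial ribosome differed between NEC and control. Across the transcriptome 0.704% of the 19176 genes tested were called changed by edgeR's quasi-likelihood test at an adjusted p below 0.05, 0.261% as higher and 0.443% as lower in NEC. None of the 78 members was called, 0 of 49 in the large and 0 of 29 in the small subunit. At an unadjusted p below 0.05 there were 4 members, 2 higher and 2 lower in NEC, against 15.6% of all genes tested. DESeq2 called 0 members while calling 7.57% of all genes. The median log2 fold change, positive where NEC is higher, was 0.05 over the large subunit and 0.06 over the small subunit, against 0.03 over all genes tested. Of the large subunit 29 members had positive and 20 negative values, and of the small subunit 17 had positive and 12 negative values.

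The log2 fold change was under 0.5 in size in 68 of the 78 members, against 55.6% of all genes tested. The 95% interval lay within a 2-fold change in either direction for 43 members. For the other 35 a change of 2-fold or more was not excluded by the interval. Standard errors ran from 0.20 (Mrpl10) to 0.44 (Mrps28), with a median of 0.27 against 0.42 over all genes tested. Groups did not overlap in 11 members, 5 with all NEC libraries above and 6 with all below, or 14.1% against 22.4% of all genes tested.

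**Figure D2:**
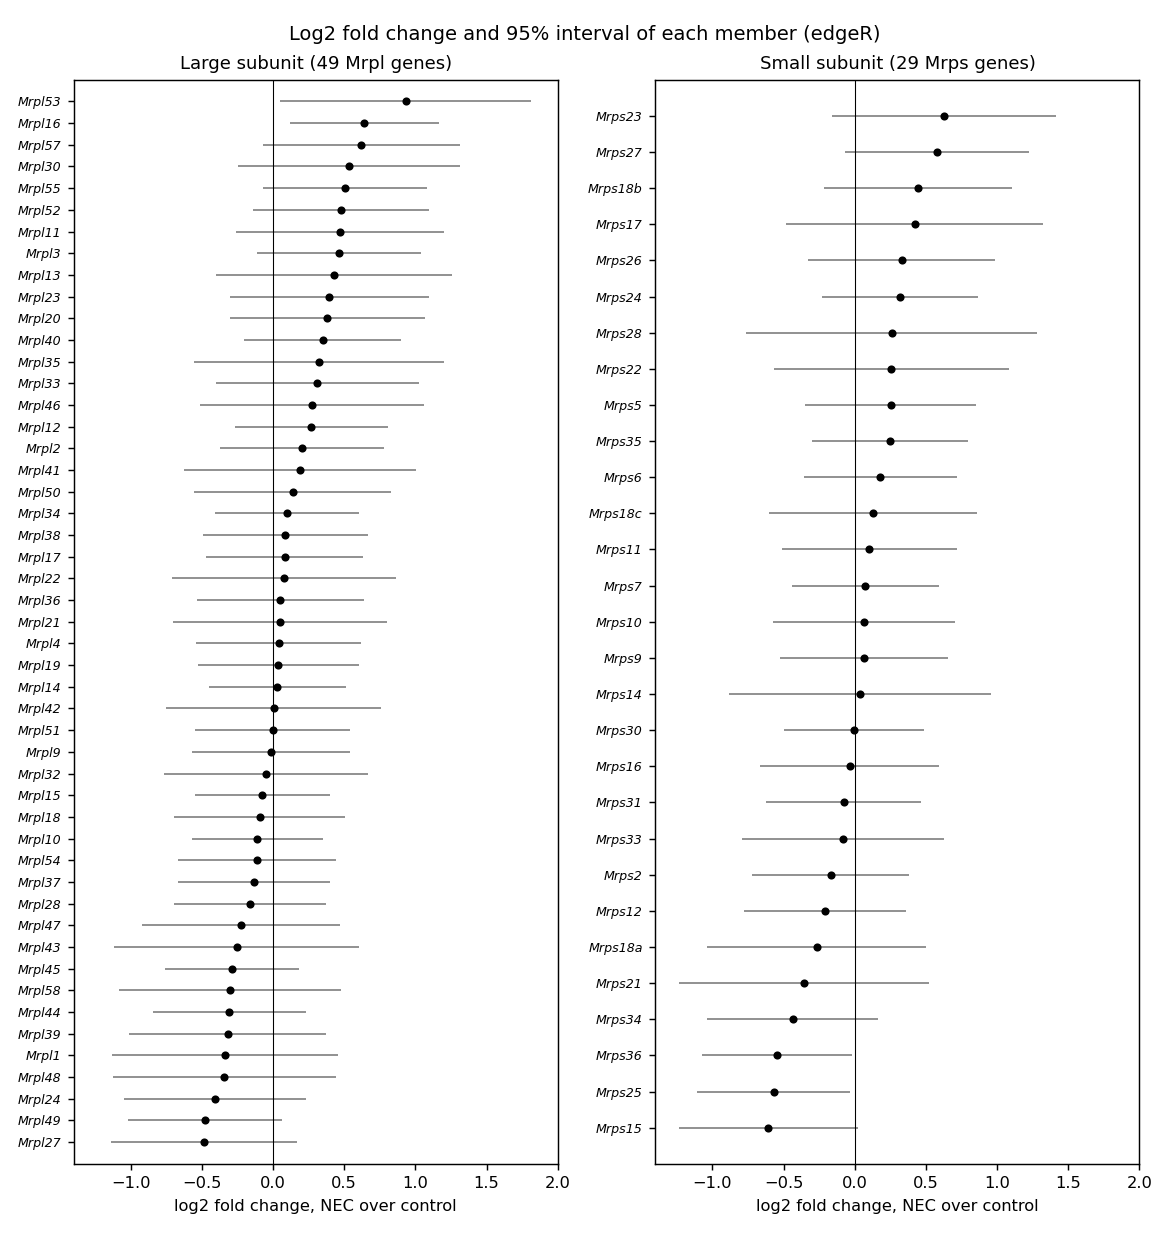
Log2 fold change of NEC over control (points) with the 95% interval from edgeR (lines) for each of the 49 large subunit and 29 small subunit members, ordered by value. Intervals of 74 members cross 0, and the 4 that do not belong to Mrpl16, Mrpl53, Mrps25 and Mrps36.

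Among large subunit proteins, Mrpl16, which contributes to the catalytic core, had the smallest p of all members. Mrpl16 (ENSMUSG00000024683, chromosome 19, 11770391 to 11774960) stood at 17.8, 21.1 and 18.8 CPM among control replicates 1 to 3 against 29.1, 26.9 and 34.0 CPM among NEC replicates 1 to 3. Every NEC library lay above every control library. The log2 fold change was 0.64 (SE 0.23, 95% interval 0.12 to 1.16) and the edgeR adjusted p was 0.235. With DESeq2 the adjusted p was 0.0910.

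Mrpl53, one of the proteins at the base of the stalk that recruits translation factors, had the largest difference of the members and the lowest counts. It stood at 1.89, 2.03 and 1.14 CPM among controls against 3.63, 2.81 and 3.22 CPM among NEC libraries, again with no overlap. The log2 fold change was 0.93 (SE 0.38, edgeR adjusted p = 0.293). Exons of Mrpl53 overlap Ccdc142os on the opposite strand and Gm42688 on the same strand. Of the other stalk proteins, Mrpl10 (log2 fold change -0.11) and Mrpl12 (0.27) had groups that overlapped. Mrpl10, the stalk base protein, had the smallest standard error, with 46.7 ± 1.84 CPM among controls against 43.3 ± 3.30 CPM among NEC libraries (SD, n = 3 each). Mrpl12 stood at 77.7 ± 10.3 and 93.7 ± 17.4 CPM.

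Mrpl45 at the tunnel exit stood at 47.9, 42.8 and 48.3 CPM among controls against 35.6, 36.5 and 41.7 CPM among NEC libraries. Every NEC library was below every control library, by a small margin between 41.7 and 42.8 CPM, with a log2 fold change of -0.29 (SE 0.20, edgeR adjusted p = 0.559). Over the 7 tunnel exit proteins listed, 3 had positive and 4 negative values, with a median of -0.23. Over the 7 proteins of the central protuberance, the crown of the large subunit, 4 were positive and 3 negative, with a median of 0.09. Of these, Mrpl55 stood at 13.2, 13.6 and 12.2 CPM among controls against 14.8, 20.1 and 20.5 CPM among NEC libraries (log2 fold change 0.50, edgeR adjusted p = 0.384). Its groups did not overlap.

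The remaining large subunit members with the smallest p went both ways. Mrpl57 stood at 27.7, 21.9 and 32.0 CPM among controls against 53.7, 28.3 and 43.3 CPM among NEC libraries, with overlapping groups (log2 fold change 0.62, edgeR adjusted p = 0.371). Mrpl3 had a log2 fold change of 0.47, from 17.6 ± 2.55 to 24.3 ± 3.74 CPM. Mrpl49 had 31.8 ± 5.04 CPM among controls against 22.8 ± 2.39 CPM among NEC libraries (SD, n = 3 each), without overlap and with a log2 fold change of -0.48 (edgeR adjusted p = 0.379). Mrpl58, a peptidyl-tRNA hydrolase built into the ribosome that rescues stalled complexes, had a log2 fold change of -0.30 (SE 0.34). Mrpl33 and Mrpl52, highest per length, had values of 0.31 and 0.48, and the low-level Mrpl19 had 0.04. Mrpl40 and Mrpl44 complete the members whose groups did not overlap and are named for that reason after their values were seen, with log2 fold changes of 0.35 and -0.31.

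In the small subunit the smallest p belonged to Mrps25, Mrps36 and Mrps15, all with lower values in NEC. Mrps25 (ENSMUSG00000014551, chromosome 6, 92169525 to 92184033) stood at 71.1, 70.4 and 57.0 CPM among controls against 35.6, 50.5 and 47.5 CPM among NEC libraries. Its log2 fold change was -0.57 (SE 0.23, 95% interval -1.11 to -0.03, edgeR adjusted p = 0.293), and its exons overlap Nr2c2 on the opposite strand. Mrps36 stood at 84.1, 72.7 and 61.5 CPM among controls against 43.6, 56.8 and 49.2 CPM among NEC libraries. Its log2 fold change was -0.55 (SE 0.23, edgeR adjusted p = 0.303), and 3 pseudogenes named after it are in the table, so its counts are uncertain. Mrps15, a bacterial-type protein, stood at 35.3, 36.3 and 29.0 CPM among controls against 16.9, 28.8 and 20.3 CPM among NEC libraries. In these 3 genes no NEC library reached the lowest control library, though for Mrps15 the gap was only from 28.8 to 29.0 CPM.

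Others in the small subunit had higher values in NEC. Mrps27, an RNA-binding protein that the mitochondrial lineage added, stood at 6.98, 7.80 and 8.16 CPM among controls against 12.9, 8.72 and 12.7 CPM among NEC libraries, without overlap (log2 fold change 0.58, edgeR adjusted p = 0.372). Mrps23 stood at 17.2, 10.6 and 23.2 CPM among controls against 28.9, 20.0 and 30.0 CPM among NEC libraries, and its groups overlapped. Mrps34 had a log2 fold change of -0.44, Mrps5 of 0.25, Mrps17 of 0.42 and Mrps21 of -0.36, with overlapping groups in each. Mrps21 ranged from 51.2 to 134 CPM among the controls alone.

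The 3 paralogs of bacterial S18 occupy different places in the ribosome and did not share a direction. Mrps18a, which sits in the large subunit in the known structures, had a log2 fold change of -0.27 (SE 0.33, edgeR adjusted p = 0.762). Mrps18b had 0.45 (SE 0.28) and Mrps18c 0.13 (SE 0.32). Mrps30, another large subunit protein despite its name, had 28.0 ± 2.24 CPM among controls against 28.0 ± 2.01 CPM among NEC libraries (log2 fold change -0.002, SE 0.21). Its 95% interval of -0.49 to 0.49 is among the narrower ones. By origin, bacterial-type proteins had a median log2 fold change of 0.06 in the large subunit (30 genes) and 0.06 in the small subunit (15 genes). Mitochondrion-specific proteins had medians of -0.001 (19 genes) and 0.25 (9 genes). The 3 S18 paralogs, Mrps30 and Mrps36 were in neither list by origin.

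Summed over members, the large subunit had 2005, 2245 and 1683 CPM in control replicates 1 to 3 and 1770, 2130 and 2305 CPM among NEC replicates 1 to 3. The small subunit had 923, 1019 and 764 CPM among controls against 739, 927 and 938 CPM among NEC libraries. Groups overlapped for both, and all members together took 0.245% to 0.326% of the scaled counts of a library. The ratio of large to small subunit sums was 2.17, 2.20 and 2.21 in control and 2.39, 2.30 and 2.46 in NEC, so that every NEC library lay above every control library. Without Mrps36 it was still higher in each NEC library (2.45 to 2.60 against 2.37 to 2.40). When Mrps18a and Mrps30 were counted in the large subunit, where the structure puts them, and Mrps36 was left out, the groups overlapped at 2.54 to 2.71 in control and 2.61 to 2.87 in NEC. The separation of the ratio thus depends on how subunits are assigned. It is a description, with no test.

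**Figure D3:**
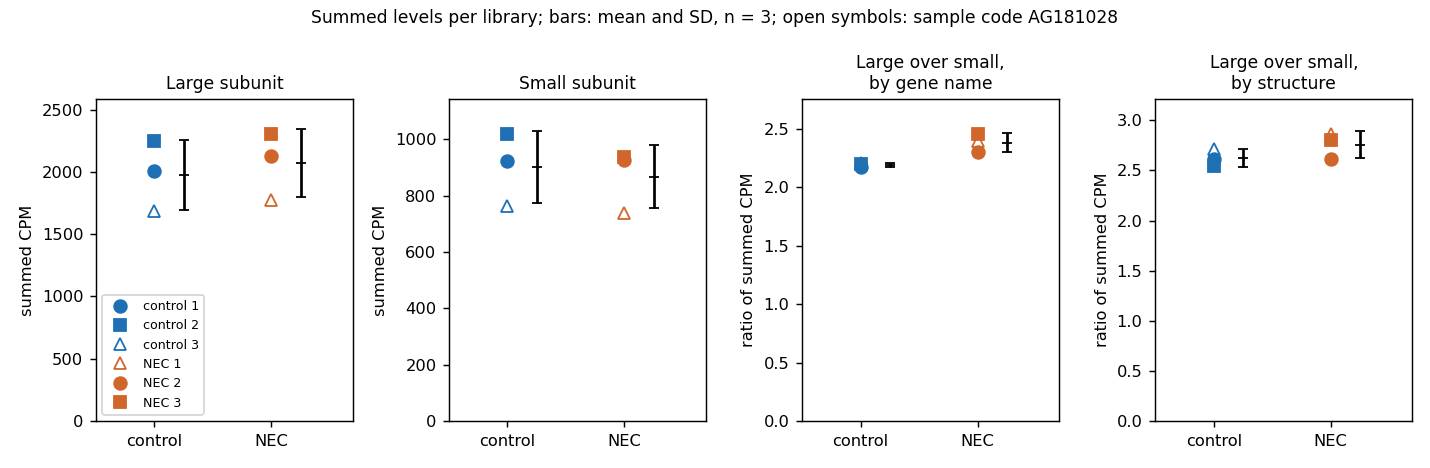
Summed CPM of the large and of the small subunit members and the ratio of these sums by gene name and by structure, for each library, with vertical axes from 0 and black bars for the mean and SD of 3 libraries. The open triangles, control replicate 3 and NEC replicate 1, have the lowest sums of their group, and the ratio by name separates the groups while the ratio by structure does not.

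The levels of many members went with a label other than the group. The submitters' sample codes begin with AG181017 in 4 samples and with AG181028 in control replicate 3 and NEC replicate 1. The labels do not say what the code stands for. Among 44 of the 78 members the AG181028 library was the lowest in both groups, against 22.6% of all genes tested, and among 8 it was the highest in both, against 21.6%. Control replicate 3 was the lowest of all 6 libraries for 29 members and NEC replicate 1 for 23. The sample code was chosen as a term with earlier results in view, and its test across members was added after seeing the data.

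With group as a term, the log2 difference of AG181028 from AG181017 had a median of -0.32 over the members (-0.34 in the large and -0.32 in the small subunit), against -0.03 over all genes tested. It was negative in 59 of the 78. No member was called for it by edgeR at an adjusted p below 0.05, and 0.0261% of all genes were. At an unadjusted p below 0.05 there were 26 members, 25 of them lower in AG181028, against 18.3% of all genes in either direction. The 2 members with the smallest p, Mrpl41 and Mrps14, and the only one higher at that level, Mrpl43, were named after their values were seen. Mrps14 had 45.6 and 56.4 CPM among the AG181017 controls and 24.1 CPM in control replicate 3, then 58.9 and 43.7 CPM in NEC replicates 2 and 3 against 26.6 CPM in NEC replicate 1. Mrpl41 stood at 61.3 and 72.4 CPM against 34.4 in control, and at 76.5 and 72.8 CPM against 42.2 in NEC. Both AG181028 libraries were the low ones, and the log2 differences were -1.01 (SE 0.23) for Mrps14 and -0.89 (SE 0.20) for Mrpl41. Mrpl43 had the opposite pattern, with 42.9 and 28.9 CPM against 62.2 in control and 24.8 and 35.4 CPM against 52.0 in NEC.

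The difference between codes could be read from separate libraries in each group. Across the 78 members, the difference among controls and that among NEC libraries had a Pearson r of 0.75 and a Spearman rho of 0.75. Over all genes with a transcript sequence (19168) the values were 0.36 and 0.44. These are across genes that share their libraries, so no p is given. The difference between codes also went with base composition, with a Spearman rho of 0.39 with transcript GC content over the members and 0.29 over all genes. With transcript length rho was 0.10 over the members and 0.20 over all genes. Of the cell type lists, smooth muscle markers also had negative differences, 7 of 7 with 0 called (median log2 difference -1.24). Their summed level was 871 and 1025 CPM against 1712 to 3022 CPM in the other 4 libraries. Macrophage and monocyte (10 of 11, median -0.61), enteric neuron and glia (7 of 8, -0.81) and fibroblast markers (5 of 6, -0.69) were mostly negative too. Macrophage and monocyte markers had a median of -0.13 within controls and -1.27 within NEC libraries. Fibroblast markers had -0.25 and -0.93, so for both the difference was larger in NEC. Enteric neuron and glia markers had -0.74 and -0.60. T cell (6 of 6) and endothelial markers (4 of 6) were mostly positive. Epithelial, neutrophil, erythroid and B cell markers were near evenly split, but their medians within controls and within NEC libraries had opposite signs. These were 1.51 and -1.61 for erythroid, 0.78 and -1.44 for neutrophil, -1.68 and 0.49 for B cell, and -0.12 and 0.24 for epithelial markers. Of all 19176 genes tested, 9900 were negative. The 7 proliferation markers were all negative as well, with 0 called (median -0.85), with 192 and 191 CPM against 248 to 413 CPM. The part of GC content, of these cell types or of proliferating cells in the difference between codes was not tested.

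**Figure D4:**
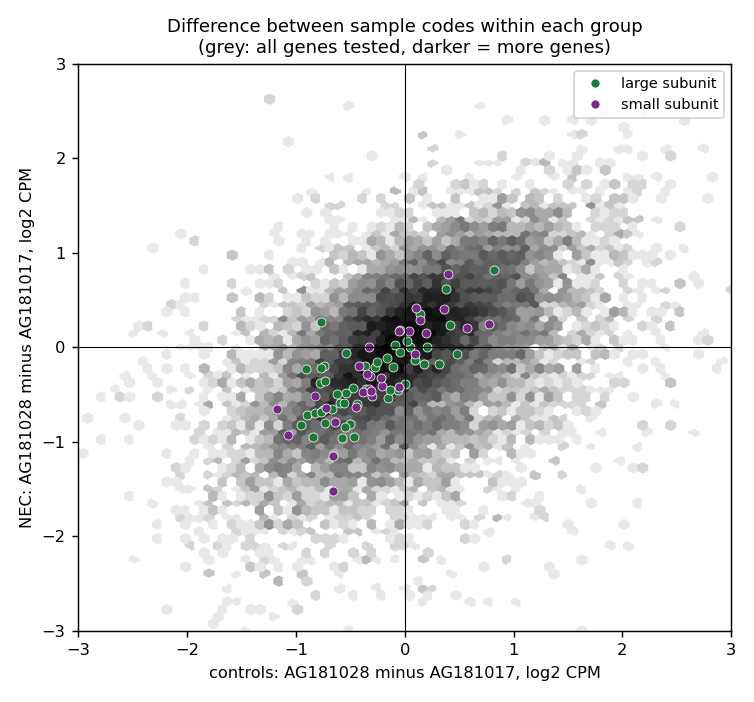
Difference in log2 CPM between the AG181028 library and the mean of the AG181017 libraries, among controls (horizontal) and among NEC samples (vertical), for 49 large subunit (green) and 29 small subunit members (purple) over all genes tested (grey, darker where more genes lie). Both differences are negative in 53 of the 78 members, in the lower left.

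The comparison of NEC with control was also made within codes. In the AG181017 samples, with 2 controls and 2 NEC, the median NEC minus control difference in log2 CPM was 0.06 in the large and 0.07 in the small subunit. In AG181028, with 1 sample per group and no test, the medians were 0.01 and -0.01. With the code as a term in the fit of all 6 libraries, 1.27% of all genes were called and 0 of 78 members. The members at an unadjusted p below 0.05 then numbered 10, against 20.5% of all genes. The smallest adjusted p among members in that fit was 0.133, for Mrps25.

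Ribosomal subunit genes without the Mrp name were not called either. Of the 5, namely Dap3, Ptcd3, Chchd1, Aurkaip1 and Gadd45gip1, 0 were called, against 0.704% of all genes. Their log2 fold changes were 0.02, 0.11, 0.29, -0.16 and -0.36. All 5 had negative differences between codes, with a median of -0.37.

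Around the ribosome, the machinery of mitochondrial gene expression was compared through lists chosen by function. Their counts stand against all 19176 genes tested, of which 0.704% were called, with 9954 positive and 9222 negative values. None of the 26 genes of ribosome assembly and rRNA modification was called, with 8 positive and 18 negative values and a median of -0.14. The smallest p there were those of Mettl17, an iron-sulfur protein of small subunit assembly (10.7 ± 0.86 CPM among controls against 6.31 ± 1.38 CPM among NEC libraries, log2 fold change -0.76), Mtg1, a GTPase of large subunit assembly (0.77), and Nsun4, an rRNA methyltransferase (-1.61, SE 0.70). Nsun4 stood at 82.0, 90.2 and 60.0 CPM among controls against 5.65, 53.7 and 16.8 CPM among NEC libraries, with a wide spread among the NEC libraries. Summed over the 26 genes, each NEC library (342 to 388 CPM) was below each control library (407 to 449 CPM). That separation rested on Nsun4: without it, a sum taken after seeing the data, NEC libraries had 334 to 362 CPM and controls 340 to 359 CPM, with overlap.

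Of the 15 translation factor genes measured, 0 were called, with 3 positive and 12 negative values and a median of -0.26. Gfm2, the factor that recycles the ribosome, stood at 44.7, 40.1 and 47.3 CPM among controls against 26.1, 26.3 and 23.6 CPM among NEC libraries. The groups did not overlap, with a log2 fold change of -0.80 (SE 0.21, edgeR adjusted p = 0.128). Guf1, an elongation factor related to bacterial LepA, stood at 23.5, 28.2 and 20.8 CPM among controls against 9.64, 14.3 and 6.49 CPM among NEC libraries (log2 fold change -1.25, SE 0.34, edgeR adjusted p = 0.137). The initiation factor gene Mtif3 had a log2 fold change of -0.49. Exons of all 3 overlap genes on the opposite strand. So do exons of Dap3, Chchd1, Gadd45gip1 and Mtg1, named above, and of Mgme1, Twnk, Esrra and Pprc1, named below. Exons of Ptcd3, Mettl17 and Timm23 overlap a gene on the same strand. The summed level of the 15 translation factor genes was 306 to 365 CPM among NEC libraries and 380 to 462 CPM in control. The separation of these sums rested on Gfm2. Without it, a sum taken after seeing the data, the groups overlapped at 280 to 339 CPM in NEC and 332 to 422 CPM in control.

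None of the 20 genes of mitochondrial aminoacyl-tRNA synthetases and the amidotransferase was called (median -0.09). Qrsl1, an amidotransferase subunit, had 3.82, 3.91 and 3.25 CPM among controls against 6.72, 7.28 and 11.3 CPM among NEC libraries (log2 fold change 1.20, SE 0.32, edgeR adjusted p = 0.137). The proline-tRNA synthetase gene Pars2 had -1.72 (SE 0.68) and Gatb, another amidotransferase subunit, -0.64. Of 12 genes for copying and transcribing mitochondrial DNA, 0 were called (median -0.16). Mgme1, a nuclease of mitochondrial DNA, had 15.1 ± 1.65 CPM among controls against 6.39 ± 2.68 CPM among NEC libraries (log2 fold change -1.24, edgeR adjusted p = 0.163). Mterf1a had -0.70 and Twnk -0.54. Over these 12 genes 5 values were positive and 7 negative. Their summed level was 193 to 215 CPM among controls against 173 to 174 CPM among NEC libraries. Without Mgme1, a sum taken after seeing the data, it was 178 to 201 CPM against 165 to 169 CPM, still without overlap.

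None of 11 regulators was called, with a median of 0.03. The nuclear receptor gene Esrra had -0.67 (SE 0.33), and the coactivator genes Ppargc1b and Pprc1 had 0.83 (SE 0.78) and 0.38 (SE 0.37). Of 19 genes for import, chaperones and the outer membrane channel, a list that also holds the citrate synthase gene Cs, 0 were called, with 15 positive and 4 negative values and a median of 0.31. The import channel gene Timm23 stood at 24.0, 26.2 and 22.4 CPM among controls against 35.0, 48.4 and 54.8 CPM among NEC libraries (log2 fold change 0.93, SE 0.24, edgeR adjusted p = 0.132). Phb had 0.51 and Timm50 0.47. The summed level of this list was 2406 to 2515 CPM among controls against 2665 to 3232 CPM among NEC libraries. Without Cs, a sum taken after seeing the data, it was 1956 to 2204 CPM against 2313 to 2396 CPM, still without overlap. The median log2 fold change was then 0.23, with 14 positive and 4 negative values.

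The members were set beside the nuclear-encoded subunits of oxidative phosphorylation and the proteins of the cytosolic ribosome. Of 82 oxidative phosphorylation genes tested, 40 were higher and 42 lower in NEC by log2 fold change; the median was -0.0027 and the interquartile range -0.17 to 0.14. Of 77 cytosolic ribosomal protein genes tested, 75 had positive values, with a median of 0.80 and an interquartile range of 0.61 to 0.93. None of either list was called, against 0.704% of all genes. Of the 77 cytosolic genes, 32 had an unadjusted p below 0.05, against 15.6% of all genes tested. Their summed level overlapped, at 27252 to 54482 CPM among controls against 46751 to 81641 CPM among NEC libraries. Groups did not overlap in 19.5% of the 77 genes, against 22.4% of all genes tested. Cytosolic ribosomal protein genes have many near-identical pseudogenes, so their counts are uncertain. The summed mitochondrial to cytosolic ratio was 0.0822, 0.0599 and 0.0898 in control and 0.0537, 0.0452 and 0.0397 in NEC, lower in each NEC library. The ratio of the members to oxidative phosphorylation genes was 0.164, 0.177 and 0.147 in control and 0.159, 0.184 and 0.158 in NEC, with overlapping groups. No test of these differences between lists was made. Median differences between codes in these lists were -0.36 for oxidative phosphorylation and -0.83 for cytosolic ribosomal proteins.

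**Figure D5:**
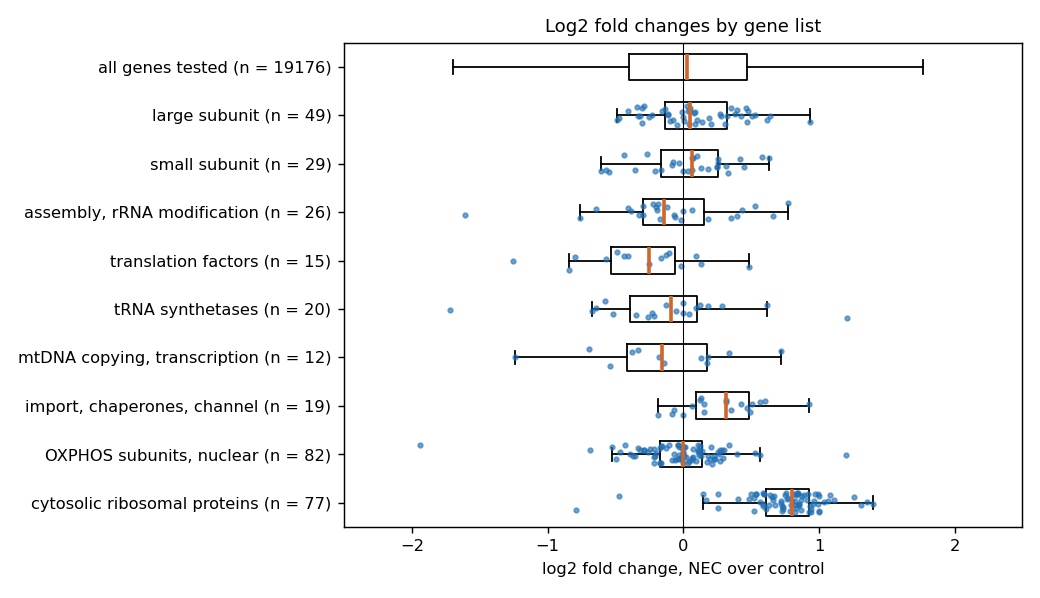
Log2 fold changes of NEC over control by gene list, with boxes for the quartiles, an orange line for the median, whiskers to the last value within 1.5 box lengths, and points for single genes. The medians of the large (0.05) and small subunit (0.06) lie near that of all genes tested (0.03), and that of the cytosolic ribosomal proteins lies at 0.80.

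Among markers of other cell types, the summed levels of neutrophil and red cell genes separated the groups. The summed level of the 8 neutrophil markers tested was 6.83 to 12.4 CPM among controls against 28.2 to 55.7 CPM among NEC libraries. Of these 8, 6 were positive and 0 were called, against 0.704% of all genes tested. Of the 2 neutrophil markers not tested, Cxcr2 had counts of 0, 0 and 0 among controls against 16, 9 and 5 among NEC libraries. Mmp8 had counts of 0, 9 and 0 against 4, 40 and 0, with overlap. The 8 erythroid markers summed to 213 to 338 CPM among controls against 476 to 2752 CPM among NEC libraries, 7 of 8 positive and 0 called. Of 11 macrophage and monocyte markers 10 were positive (median 0.61) and 1 was called, the scavenger receptor gene Cd163, which rose from 0.304 ± 0.0938 to 3.96 ± 1.73 CPM (SD, n = 3 each, log2 fold change 3.71, edgeR adjusted p = 0.0396). The summed level of these 11 overlapped, at 334 to 423 CPM among controls against 229 to 365 CPM among NEC libraries. The part of these cell types in the values of the members was not tested.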

How the data were processed

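RNA sequencing (150 bp read pairs, Illumina NovaSeq, per the labels' protocols) covered 3 control and 3 NEC samples. The authors deposited 1 table of whole-number counts per Ensembl gene; mm10 is the build in the submitters' processing notes, and no source used here gives the aligner, counter, annotation or strand setting. Among low counts, multiples of 4 occurred 1.83 times as often as their neighbours; whether single counts are independent fragments was not tested. Of the identifiers 54409 matched GENCODE M21 and 37 did not. Total counts per library limit precision through counting error only.

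Genes were kept by filterByExpr (minimum count 10) in edgeR 4.0.16 (R 4.3.3), scaled by TMM and tested with the quasi-likelihood F test (robust=TRUE), with Benjamini-Hochberg adjustment over 19176 genes and a threshold of 0.05. SE is the log2 fold change divided by the square root of F. Log2 CPM used a prior count of 2. The script was tested on simulated data. Alternatives used DESeq2 1.42.0, limma-voom (limma 3.58.1), other scalings and filters, the replicate block, the sample code and left-out libraries; an offset by transcript GC content was added after seeing the data. The principal transcript, whose length stands for exon length in levels per kilobase, is the APPRIS principal one, otherwise the longest.

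The members and lists were chosen with earlier results of these data known. Named members were any called, the 6 smallest p and the 2 highest and 2 lowest levels per length in each subunit, and 9 fixed for their roles; other lists gave the 3 smallest p each. The symbols Mtrfr and Mtres1 did not match. Genes named after their values were seen are marked as such.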

Additional observations from a re-analysis of the deposited data

How the results depend on the processing

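The count of members called stayed at 0 in each of the 18 alternatives, with 0 to 10 members at an unadjusted p below 0.05. The lowest adjusted p of any member was 0.0910 (Mrpl16, DESeq2). Over all genes, the 135 calls became 247 with no low-count filter, 243 with the sample code as a term, 1452 with DESeq2, 54 with the replicate block, 25 in the AG181017 samples alone, and 0 to 106 with 1 library left out. Leaving out control replicate 1 gave 0, NEC replicate 3 gave 3, control replicate 3 gave 25 and NEC replicate 1 gave 34. The cause was not tested. The median of all genes moved to 0.10 with library size only.

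The large subunit median ran from -0.01 to 0.14 and the small subunit median from -0.06 to 0.18 over the alternatives, each within 1 SD between libraries (0.24 and 0.17) of the reported median; both changed sign when some single libraries were left out. Of 468 values of the 26 named members, 455 kept their direction and 13 reversed: Mrps30 (0.006524 with RLE, 0.0592 with library size only, 0.000043 without a filter, 0.0064 with DESeq2, 0.0409 with GC offsets, -0.058 to 0.0565 with a library left out), and, with a library left out, Mrpl19 (-0.0798 to 0.17), Mrpl58 (-0.53 to 0.0555) and Mrps18c (-0.11 to 0.413). These values were not called.

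Same-numbered samples had correlations of their deviations from the group means of -0.14, 0.27 and -0.01. The labels do not say whether the numbers pair animals, and with 3 libraries a group these correlations cannot decide it. The replicate block called 0 members. Not every sample correlated best with its own number. With 3 libraries a group, the 95% intervals of 35 members reach beyond a 2-fold change.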
